A study of Mus musculus with 10 samples.

Results

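Proliferating cells of the mouse pituitary were taken as the cell barcodes that held transcripts of at least 2 of 9 genes of late S phase and mitosis, Mki67, Top2a, Cenpf, Ccna2, Birc5, Cdk1, Nusap1, Prc1 and Hmmr (the gate genes). Of 22325 barcodes kept from 10 libraries, 342 passed (the members), and the 21983 that did not are called the other barcodes. Each barcode stands for a droplet that was meant to hold 1 cell, and each transcript was counted as a UMI, a molecular tag that counts a captured mRNA molecule once. Members were thus chosen by the measured UMIs of the gate genes, whose levels in members are given as a description and were not tested.

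All mice were of the CD1 strain, and the labels and methods give 5 groups. Wild-type (WT) females of 8 weeks and WT males of 8 weeks had 3 libraries each, 1 made on the 10X Genomics platform and the others by Drop-seq (titled WT-8wk-0324-female, WT-8wk-0511-female, WT-8wk-0324-male and WT-8wk-0511-male). A single Drop-seq library came from 8-week females carrying mt/hGRF, a transgene in which a metallothionein promoter drives human growth hormone releasing factor and which is expressed in many tissues rather than in the hypothalamus alone. WT females of 13 weeks gave 1 Drop-seq library from a virgin mouse and 2 from lactating mice. Pituitaries were dissociated without enzymes, mice were pooled in most Drop-seq libraries, and nothing in the tables separates the mice within a library, so the library was the unit of every test and the p-values measure only the spread between libraries.

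The kept barcodes held between 798791 and 4960260 UMIs per library. The median member held 918.5 UMIs (range 301 to 21063) of 510 genes, and in each library the members were deeper than the other barcodes, with medians of 717 to 1952 against 531 to 1232 UMIs. Mitochondrial genes gave 0.462% to 3.94% of the UMIs of members and 0.664% to 2.89% of those of other barcodes. Over the 45 pairs of libraries, 12 barcode sequences were shared, at most 5 in a pair. Doublets were not removed.

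A dividing cell copies its DNA in S phase and separates the copies in mitosis, and the genes that serve these steps are transcribed in turn. E2F factors drive genes of DNA replication at the start of S phase, and the MMB complex, working with NF-Y, drives mitotic genes later. In the adult pituitary few cells divide. Sox2 marks the stem cell compartment, Pou1f1 specifies the somatotropes, lactotropes and thyrotropes that make growth hormone, prolactin and thyroid stimulating hormone, Tbx19 the cells that make proopiomelanocortin, and Nr5a1 the gonadotropes, while C1qa belongs to macrophages.

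The promoters of these genes carry short sequences known from both kinds of control, and 5 are printed because 3 of their genes are gate genes and the others are replication genes that rose with them. Each window runs from 250 bases before to 50 bases after the annotated start, is read 5′ to 3′ on the gene's strand and comes from RefSeq (GRCm38.p6). In the promoters of Cdk1 (chr10:69352863-69353162, minus strand), Cenpf (chr1:189688037-189688336, minus strand) and Mki67 (chr7:135716330-135716629, minus strand), the capitals mark the CHR (cell cycle genes homology region, TTTGAA) and the CCAAT box that NF-Y binds, which reads ATTGG where it lies on the opposite strand.
Cdk1: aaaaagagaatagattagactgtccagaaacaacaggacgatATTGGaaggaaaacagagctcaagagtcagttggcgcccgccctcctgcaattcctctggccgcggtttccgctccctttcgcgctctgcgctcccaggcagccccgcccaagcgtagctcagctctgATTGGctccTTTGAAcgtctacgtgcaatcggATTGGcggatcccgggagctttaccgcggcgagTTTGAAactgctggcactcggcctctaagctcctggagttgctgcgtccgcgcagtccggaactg
Cenpf: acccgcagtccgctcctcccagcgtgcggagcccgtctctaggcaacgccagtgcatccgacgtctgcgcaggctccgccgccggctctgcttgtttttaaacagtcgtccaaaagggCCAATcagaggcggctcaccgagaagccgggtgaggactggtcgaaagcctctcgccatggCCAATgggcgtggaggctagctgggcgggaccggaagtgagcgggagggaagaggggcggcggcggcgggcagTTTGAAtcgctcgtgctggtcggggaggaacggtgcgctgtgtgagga
Mki67: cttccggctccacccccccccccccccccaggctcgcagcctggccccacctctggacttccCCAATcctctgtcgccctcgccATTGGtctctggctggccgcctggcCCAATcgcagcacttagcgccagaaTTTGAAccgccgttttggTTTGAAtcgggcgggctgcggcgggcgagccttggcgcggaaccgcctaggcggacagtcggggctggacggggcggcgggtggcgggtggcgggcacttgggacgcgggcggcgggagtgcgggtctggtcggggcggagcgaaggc
In the promoters of Hells (chr19:38930740-38931039, plus strand), a chromatin remodeller of S phase, and Clspn (chr4:126556730-126557029, plus strand), which guards replication forks, the capitals mark E2F letters (TTTCCCGC, TTTGGCGC or TTTCGCGC, on either strand).
Hells: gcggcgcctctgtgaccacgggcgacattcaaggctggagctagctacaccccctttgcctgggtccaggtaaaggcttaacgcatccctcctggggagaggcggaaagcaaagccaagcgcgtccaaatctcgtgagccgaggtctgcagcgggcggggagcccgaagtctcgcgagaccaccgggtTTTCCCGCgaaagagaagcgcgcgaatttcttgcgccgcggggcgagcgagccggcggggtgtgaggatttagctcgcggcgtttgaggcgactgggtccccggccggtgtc
Clspn: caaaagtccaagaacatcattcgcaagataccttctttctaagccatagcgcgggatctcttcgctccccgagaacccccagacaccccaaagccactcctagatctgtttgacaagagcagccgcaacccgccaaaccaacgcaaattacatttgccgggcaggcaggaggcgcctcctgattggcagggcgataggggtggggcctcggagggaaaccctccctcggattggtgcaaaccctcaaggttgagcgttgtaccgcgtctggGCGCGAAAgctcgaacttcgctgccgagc

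The CHR began 71 and 15 bases before the start of Cdk1, 116 and 98 bases before that of Mki67 and 2 bases after that of Cenpf. The Cdk1 window also held TTTCGCGC, left in lower case. TTTGAA or its reverse complement stood in the windows of 6 of the 8 gate genes with a promoter in the RefSeq table, in 33 of 49 genes of a list of mitosis genes (67.3%) and in 5 of 35 genes of a list of DNA replication genes (14.3%), against 20.2% of the windows of all 27025 gene symbols. CCAAT stood in 36 of 49 mitosis windows (73.5%) and 21 of 35 replication windows, against 41.1% of all, and both motifs stood together in 55.1% of the mitosis windows against 7.97% of all. E2F letters had the opposite order, with 15 of 35 replication windows (42.9%), 4 of 49 mitosis windows (8.16%) and 2.12% of all. None of the 6 hormone genes or 11 secretory granule genes with a window held them. None of the motifs contains another, and a match describes the letters only.

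The label of proliferating cells was set beside genes that the rule had not used. In sums over all libraries, 59 mitosis genes outside the gate gave 4.30 UMIs per 10000 UMIs in barcodes with no gate gene, 8.49 in barcodes with 1 gate gene, which missed the rule, 34.7 in the 119 members with exactly 2, which just passed it, 98.6 in the 79 with 3 and 142 in the 144 with 4 or more. The 42 replication genes followed the same order, at 4.95, 7.58, 17.7, 34.0 and 44.1 UMIs per 10000, and so did 24 genes of chromatin and cytoskeleton, at 14.4, 18.1, 24.4, 41.7 and 59.4. Members with 2 gate genes (34.8% of members) thus lay between the other barcodes and the members with more gate genes, while 15 secretory granule genes summed to 154 UMIs per 10000 in them, 74.9 in members with 3, 73.3 in those with 4 or more and 102 in barcodes with none. Lactating 2 gave 2167 of the 3240 granule UMIs in members with 2 gate genes, and without it the values were 92.8, 52.5, 46.0 and 84.8. These genes are transcribed together with the gate genes and were bound to follow the choice, so the values describe the chosen barcodes and are not independent evidence.

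**Figure D1:**
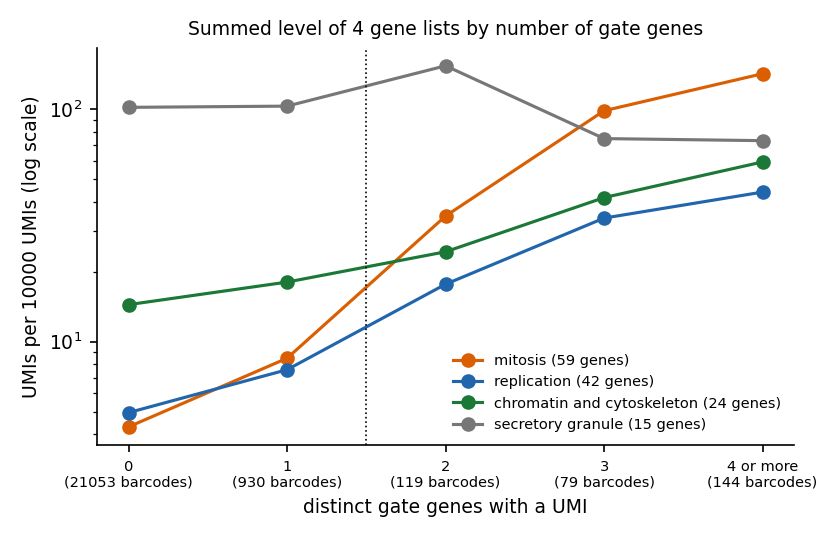
Summed level of the mitosis, replication, chromatin and cytoskeleton, and secretory granule lists (UMIs per 10000 UMIs, log axis) in barcodes with 0, 1, 2, 3 and 4 or more distinct gate genes, summed over all libraries; the dotted line is the threshold for membership. Mitosis genes climbed from 4.30 to 142 and replication genes from 4.95 to 44.1, with the steepest step of the mitosis list between 1 and 2 gate genes.

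The order over gate genes did not hold in full on 10X alone. There the 7 members with 2 gate genes had 4.34 replication UMIs per 10000 against 5.07 in barcodes with none. Their chromatin and cytoskeleton genes were at 6.78 against 15.2, and their mitosis genes at 14.1 against 2.91. A single 10X female member, with 15822 UMIs of Pomc, held 21063 of the 36860 UMIs of these 7 members. It therefore weighs heavily on their levels, and the levels without it were not computed. Members as a whole were then set against the other barcodes of each library. Members had 29.9, 104 and 161 UMIs of the mitosis list per 10000 UMIs in the lowest, the median and the highest library, against 3.02, 4.76 and 6.40 in other barcodes, and the ranges did not overlap. Replication genes stood at 14.9, 28.1 and 57.9 against 4.56, 5.21 and 5.83, again without overlap. Chromatin and cytoskeleton genes were at 9.95 to 72.8 against 11.8 to 17.4, higher in members of 9 libraries and not in the 3 members of the 10X male library. At least 1 UMI of a mitosis gene and of a replication gene was held by 269 members (78.7%), while 59 (17.3%) had UMIs of mitosis genes alone, 5 (1.46%) of replication genes alone and 9 (2.63%) of neither. A UMI of either list was also held by 40.6% to 66.4% of the other barcodes of a library, so 1 such UMI marks no programme. These values were tied to the choice of members, and members at the threshold had the lowest levels.

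Among the gate genes, Top2a, the topoisomerase that untangles replicated DNA, was carried by 218 members (63.7%), Cenpf, a kinetochore protein, by 203 (59.4%) and Mki67, which coats mitotic chromosomes, by 177 (51.8%). The spindle midzone protein Prc1 was carried by 165 (48.2%), the spindle proteins Hmmr and Nusap1 by 129 and 128, and the survivin gene Birc5 by 94. The kinase Cdk1 and its cyclin Ccna2, which start mitosis and S phase, came last with 44 (12.9%) and 40 (11.7%). The median member held 5 gate UMIs of 3 gate genes, and 1 member held all 9.

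Of the lineage genes, Pou1f1 was by far the most common in members. It was carried by 153 of 342 (44.7%, exact 95% interval 39.4 to 50.2) and by 32.2% of other barcodes. C1qa was carried by 14 (4.09%, interval 2.26 to 6.77) and Sox2 by 13 (3.801%, interval 2.04 to 6.41), Tbx19 by 5 (1.46%) and Nr5a1 by 1 (0.292%). In other barcodes C1qa was at 4.07%, Sox2 at 1.71%, Tbx19 at 1.82% and Nr5a1 at 0.673%. These intervals, exact binomial as are all others, cover counting error only.

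The lineage genes were mostly carried alone. Pou1f1 was the only one of the 5 in 144 members, C1qa in 10, Sox2 in 9, Tbx19 in 4 and Nr5a1 in 1. Pou1f1 was found together with Sox2 in 4 members, with C1qa in 4 and with Tbx19 in 1. None of the 5 was seen in 165 members (48.2%), which were shallower, with a median of 709 UMIs against 1100 in members with Pou1f1 alone.

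Free RNA in the suspension sets a floor under such shares. In 839 barcodes that carried macrophage markers, which should not express pituitary hormones, Gh was found in 97.5%, Prl in 86.5% and Pomc in 78.3%, so the hormones seen in 99.4%, 97.1% and 94.7% of members do not tell which cells made them. Pou1f1 was found in 4.65% of these macrophage barcodes, Tbx19 in 0.238% and Sox2 in 0.119%, at library medians of 633 to 1781 UMIs. Barcodes with red blood cell markers carried Pou1f1 in 28.1%, at library medians of 949 to 3315 UMIs. In the 7078 other barcodes with Pou1f1, at library medians of 550 to 1311 UMIs, Sox2 was at 1.05%, C1qa at 1.05%, Tbx19 at 0.975% and Nr5a1 at 0.494%, so the shares of Tbx19 and Nr5a1 in members lay near or under this background and are not read as expression. The red blood cell barcodes held Sox2 in 1.92% and C1qa in 2.88%, and the latter lies inside the interval of C1qa in members (2.26 to 6.77), so the share alone does not set C1qa apart from this background. By level, C1qa in members ran from 0 in 5 libraries to 18.3 UMIs per 10000, and in red blood cell barcodes from 0 to 4.04. The 14 members with C1qa held 131 of its UMIs, at most 32 in 1 member. The pooled share of Sox2 in members (interval 2.04 to 6.41) was above that in each of these classes. That of Pou1f1 was above those in the macrophage and red blood cell barcodes. Class shares have counting error of their own, with Sox2 in 12 of 626 red blood cell barcodes, and depth was not matched. No difference is read from these shares. In 10X female, red blood cell barcodes held Gh at 1496 UMIs per 10000 and macrophage barcodes at 85.5, so the classes give unlike floors.

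Pou1f1 exceeded the other barcodes in 9 of the 10 libraries before depth was matched. It was carried by 11 of 16 members (68.8%) against 46.8% of other barcodes in the 10X female library and by 3 of 3 against 43.6% in the 10X male library. In the mt/hGRF library it was carried by 32 of 86 (37.2%) against 24.6%, in the virgin library by 18 of 45 (40.0%) against 28.7%, and in the lactating libraries by 13 of 22 (59.1%) against 34.5% and 59 of 125 (47.2%) against 32.0%. The 8-week Drop-seq females had 2 of 9 (22.2%) against 29.6% in WT-8wk-0324-female, the one library in which members were lower, and 6 of 10 against 28.1% in WT-8wk-0511-female. The Drop-seq males had 4 of 12 (33.3%) against 25.4% in WT-8wk-0324-male and 5 of 14 (35.7%) against 31.4% in WT-8wk-0511-male.

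The members' excess of Pou1f1 did not pass the test at equal depth. Each barcode was thinned to 300 UMIs and the share in members was set against that in other barcodes over the 8 libraries with at least 10 members, with an exact two-sided sign-flip permutation test whose smallest p is 0.0078125 and Benjamini-Hochberg adjustment over the 5 genes. Pou1f1 stood at 19.6% ± 10.7 (SD, n = 8 libraries) in members and 14.8% ± 1.95 in other barcodes, a difference of 4.83 points that was positive in 5 of 8 libraries (exact permutation p = 0.242, adjusted 0.313). Without thinning the difference was 16.2 points and positive in 8 of 8 libraries (adjusted exact permutation p = 0.0390625). Thinning lowered both sides, which stood at 47.7% against 31.4% before it, so the points shrank with the level. How much of the excess went with depth was not tested. The largest thinned excess was in WT-8wk-0511-female, at 40.0% against 13.1% (10 members), without which the difference was 1.67 points, and with at least 3 gate genes it was 1.28 points. It was 6.15 points with Drop-seq only and 7.08 points (29.0% against 22.0%, higher in 5 of 6 libraries) after thinning to 500 UMIs, and passed in none of these. The mt/hGRF library lay below its other barcodes at 300 UMIs, at 8.14% against 12.6%, but above them at 500 UMIs, at 23.5% against 18.2%. WT-8wk-0511-female went the other way, to 11.1% against 18.9% at 500 UMIs, with 9 members left and so outside that test. Each thinning was a single random draw, so these values do not characterise single libraries.

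**Figure D2:**
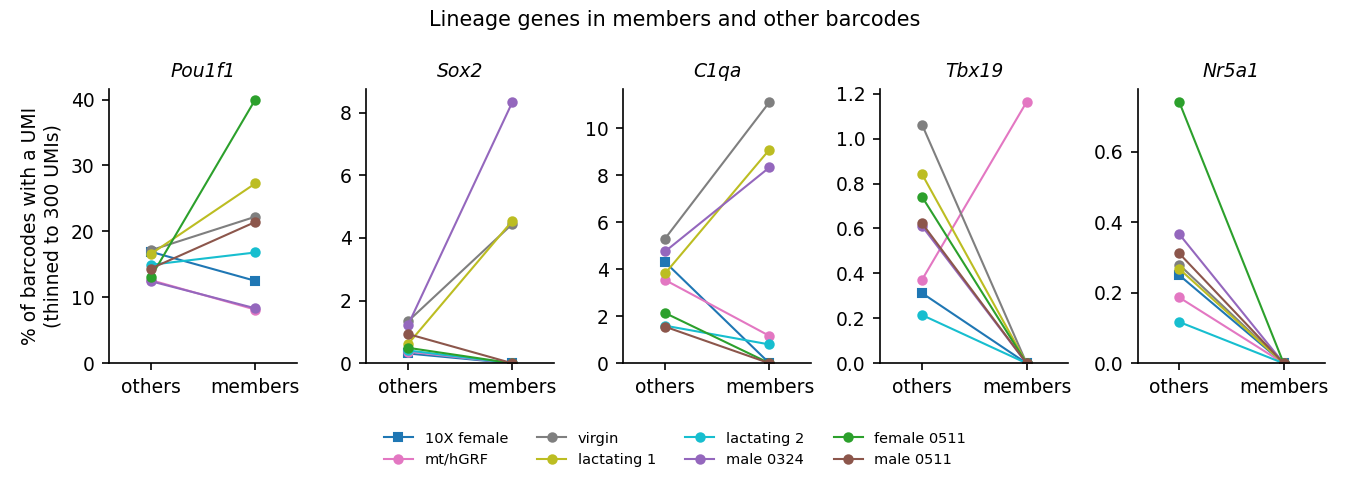
Share of barcodes with a UMI of Pou1f1, Sox2, Tbx19, Nr5a1 and C1qa after thinning each barcode to 300 UMIs (percent), in other barcodes and in members; each line is 1 of 8 libraries. The lines of Pou1f1 rise in 5 libraries and fall in 3, from a mean of 14.8% to 19.6%, and those of Nr5a1 all end at 0.

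Sox2 was at 2.17% ± 3.21 in thinned members and 0.712% ± 0.401 in other barcodes (1.45 points, higher in 3 of 8 libraries, exact permutation p = 0.25, adjusted 0.313), and the difference was 0.645 points without WT-8wk-0324-male. With 500 UMIs kept, which left 6 libraries, it was at 4.31% against 0.975% and higher in 6 of 6 (exact permutation p = 0.03125, adjusted 0.0781). Each of these libraries held 1 thinned member with Sox2. Among so few members 1 carrier lies above a level this low, so no higher share of Sox2 is read from it. C1qa was at 3.81% ± 4.80 against 3.38% ± 1.45 (0.435 points, p = 0.758 in the exact permutation test). Nr5a1 was absent from thinned members, 0 of 330, which allows a share of up to 0.909%, and at 0.315% ± 0.188 in other barcodes, lower in 8 of 8 libraries (exact permutation p = 0.0078125, adjusted 0.0390625). The limit lies above the level in other barcodes. A gene this rare gives 0 in most libraries with so few members, and a 0 is always below a level above 0, so the small p is not read as a lower share of Nr5a1. Tbx19 was at 0.145% against 0.597% (p = 0.0625 in the exact permutation test, adjusted 0.156).

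The Sox2 and C1qa members were spread over the study. The 13 members with Sox2 came from 7 libraries, with 3 each in mt/hGRF and virgin, 2 each in WT-8wk-0324-male and lactating 2, and 1 each in 10X female, lactating 1 and WT-8wk-0324-female. Those with C1qa came from 5 libraries, led by the virgin library with 6 of its 45 members and WT-8wk-0324-male with 3 of 12. Differences of these counts between conditions were not tested.

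The larger marker lists were met as follows, with no test of the differences. Somatotrope markers were met by 160 members (46.8%, against 36.7% of other barcodes), lactotrope markers by 159 (46.5% against 33.4%) and thyrotrope markers by 23 (6.73% against 3.14%), and a barcode could meet several. Macrophage markers were met by 14 (4.09% against 3.82%), those of gonadotropes and of corticotropes or melanotropes by 9 each (2.63% against 2.47% and 2.74%), those of red blood cells by 6 (1.75% against 2.85%) and those of the Sox2 class by 4 (1.17% against 0.596%). Sox9, on the list of the Sox2 class, was held by 1 member (0.292%) against 0.687% of other barcodes. No member met the rule for the markers of endothelial cells, stroma, T or NK cells or B cells, and 0 of 342 allows a share of up to 0.877% of barcodes that meet the rule. This does not limit the cells of these types, since the rule misses most carriers: only 22 other barcodes met the endothelial rule and 109 held the endothelial gene Plvap. Plvap was held by 9 members (2.63%, interval 1.21 to 4.94) in 6 libraries against 0.496% of other barcodes, and the stromal collagen gene Col1a1 by 5 (1.46%) against 0.837%. These shares were not matched for depth, and free Gh and Prl enter the somatotrope and lactotrope lists. Both lists also hold Pou1f1 and need only 2 markers, so their counts largely repeat the 153 members with Pou1f1. The somatotrope marker Ghrhr was held by 26 members (7.60%) against 8.97% of other barcodes.

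The share of members differed widely between libraries. It was lowest in the 10X male library, 0.186% (3 of 1610, interval 0.0384 to 0.544), and 0.987% (16 of 1621, interval 0.565 to 1.60) in the 10X female library. The Drop-seq libraries of 8-week females had 1.12% (9 of 807) and 0.816% (10 of 1226), and those of males 1.44% (12 of 832) and 0.721% (14 of 1942). The virgin library had 1.24% (45 of 3627, interval 0.906 to 1.66). The lactating libraries had 0.834% (22 of 2639, interval 0.523 to 1.26) and 2.38% (125 of 5253, interval 1.98 to 2.83). The highest share, 3.11% (86 of 2768, interval 2.49 to 3.82), was that of the mt/hGRF library. This order rests on the limit on ribosomal protein pseudogenes. With barcodes over that limit kept, 10X male went from the lowest to the highest share, 5.49% (97 of 1767), and WT-8wk-0511-female (4.99%) and 10X female (3.82%) also lay above mt/hGRF (3.15%). The added barcodes with at least 2 gate genes had medians of 22193.5 UMIs in 10X female and 23372.5 in 10X male. They held 49.6 and 39.8 UMIs of Gh, Prl and Pomc per 10000, and those of WT-8wk-0511-female 16.1. The 7 hormone genes, a wider list, gave 1793, 2717 and 1419 in the other barcodes of these libraries. The replication and mitosis lists together gave 34.7, 27.6 and 54.3 in the added barcodes with at least 2 gate genes. In the other barcodes replication genes gave 5.64, 4.59 and 5.32 and mitosis genes 3.02, 3.10 and 4.47. Cycle levels are tied to the choice by gate genes, and which cells the added barcodes came from was not tested.

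The gate genes that chose the members were also summed over all kept barcodes, as a description. Their UMIs stood at 421 per 1000000 UMIs of all kept barcodes in mt/hGRF and 221 in lactating 2, and 39.2 in 10X male and 87.0 in 10X female, the lowest pair. The other libraries lay between 96.6 and 197. Members held between 14.7% and 80.7% of their library's gate UMIs, so the sums and the shares are not independent.

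**Figure D3:**
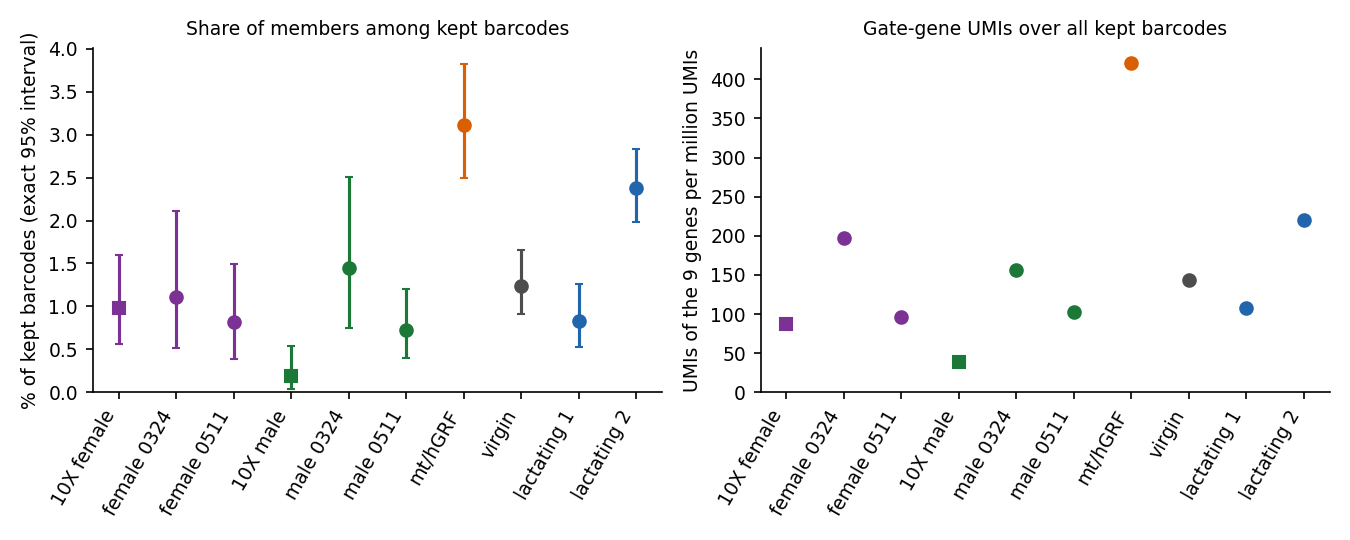
Left, share of kept barcodes that were members in each of the 10 libraries (percent, bars for the exact 95% interval); right, UMIs of the 9 gate genes per 1000000 UMIs of kept barcodes; squares are 10X and circles are Drop-seq libraries. The mt/hGRF library is highest in both, at 3.11% and 421 UMIs per 1000000 UMIs, and the 10X male library lowest, at 0.186% and 39.2 UMIs per 1000000 UMIs.

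Male and female mice of 8 weeks did not differ beyond the spread between libraries. The share was 0.973% ± 0.150 (SD, n = 3) in females and 0.783% ± 0.630 (n = 3) in males, a difference of -0.189 points (two-sided exact permutation p = 0.7, where 3 against 3 cannot go below 0.1). Within a label, males minus females was -0.801 points on 10X, 0.327 in the WT-8wk-0324 pair and -0.0948 in the WT-8wk-0511 pair. In an exact sign-flip test of these pairs p was 0.75. A difference in share between the sexes was thus not shown in these libraries.

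For the transgene the question was whether a chronic excess of the releasing factor goes with more dividing cells. The mt/hGRF library had 3.22 times the mean share of the 2 WT Drop-seq females of that age, 3.11% against 0.965%. With 1 library there was no test, and transgene and library cannot be told apart. The ratio was 3.73 and 4.99 after thinning to 300 and 500 UMIs, 3.11 with at least 3 gate genes and 1.47 (8.42% against 5.71%) with at least 1, but 1.03 (3.15% against 3.06%) when barcodes rich in ribosomal protein pseudogenes were kept, since those add members to the WT-8wk-0511-female library and hardly any to mt/hGRF. For lactation, the mean share was 1.61% against 1.24% in the virgin mouse, and the lactating libraries lay on both sides of it, so no difference was shown.

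Members were next compared with the other barcodes gene by gene, with UMIs summed per library and edgeR's quasi-likelihood test over 8 libraries, the library as a block and 6330 genes tested. At an adjusted p under 0.05, 181 genes (2.86%) were higher in members and 137 (2.16%) lower. The median log2 fold change of all genes was -0.23, which moved to -0.13 with DESeq2's median-ratio size factors, and fold changes are to be read against it. Levels below are UMIs per 10000 UMIs, and their lowest, median and highest values are over all 10 libraries.

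Mitosis genes led. Of the 59 listed, 29 passed the filter on low counts and rose, with a median log2 fold change of 5.48. Several passed only through the members, where they are high, and had to differ, so this count supports nothing beyond the choice of members. Nuf2, which attaches kinetochores to the spindle, had 0.741, 1.39 and 3.997 UMIs per 10000 in members of the lowest, median and highest library and 0, 0.00580 and 0.0155 in other barcodes. Its ranges did not overlap, and its log2 fold change was 6.83 ± 0.44 (SE), higher in 8 of 8 libraries. Psrc1 (6.80) and Spag5 (6.08), both of the spindle, Ankle1, a nuclease that acts on chromatin bridges (6.68), and Cdc20, the activator of the anaphase promoting complex (6.16), were among the 10 genes with the largest rise, as were Neil3, Ckap2l, Troap and Cdca2. Of these genes, Spag5, Ankle1 and Neil3 were not on the list. The most abundant mitosis gene, the condensin subunit Smc4, had 1.10, 10.0 and 18.2 UMIs per 10000 in members and 0.240, 1.20 and 1.71 in other barcodes (log2 fold change 2.85 ± 0.24). The smallest rise was that of the phosphatase gene Cdc25b, at 1.58 ± 0.33.

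Replication genes rose less. Of 42 listed, 16 were tested and 13 rose, with a median of 2.66. Clspn, whose promoter is printed above, had 0, 1.87 and 6.94 UMIs per 10000 in members and 0.00414, 0.0286 and 0.129 in other barcodes, with a log2 fold change of 5.27 ± 0.35, and Hells rose by 3.97 ± 0.32. The sliding clamp Pcna rose by 2.68, thymidylate synthase Tyms by 2.73 and the replicative helicase subunit Mcm7 by 1.81. The clamp loader subunit Rfc3 rose least, by 1.12 ± 0.31 (adjusted p = 0.0099), a call lost without the mt/hGRF library (adjusted p = 0.238) and without lactating 2 (adjusted p = 0.0694). Among the windows of the called genes, E2F letters stood in 7 of 11 replication genes (63.6%) and the CHR in 17 of 24 mitosis genes (70.8%).

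Chromatin and cytoskeleton genes followed, with 15 of 20 tested higher and a median of 1.26. The chromatin protein gene Hmgb2 had 0, 1.42 and 4.92 UMIs per 10000 in members and 0.0505, 0.124 and 0.326 in other barcodes (log2 fold change 3.74 ± 0.33). The histone variant H2afx rose by 3.16 and the tubulin Tubb5 by 1.86, while Anp32b had the smallest rise (0.94 ± 0.28, adjusted p = 0.0224), which was lost without mt/hGRF (0.63, adjusted p = 0.337), without virgin and without lactating 2. The most abundant of the list, the heterochromatin protein Cbx5, did not pass (0.55, adjusted p = 0.177). Because of their link to the gate genes, the counts of these lists describe the chosen barcodes.

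Inhibitors of the cycle were also among the genes that rose. Of 18 tested genes of G1 and its inhibitors, 4 rose and 1 fell, with a median of -0.20. Those that rose were the CDK4 and CDK6 inhibitors Cdkn2c (2.38 ± 0.45) and Cdkn2d (1.88 ± 0.37), the p21 gene Cdkn1a (2.32 ± 0.35) and the pocket protein Rbl1 (1.65 ± 0.42). Cdkn2c had 28 UMIs in 22 members, and its level in other barcodes was only 0.0504 to 0.149 over the libraries. Like several mitosis genes, it may have passed the filter on low counts only through the members, where it is high. Its call therefore supports nothing beyond the choice of members, and the count of inhibitors that rose is a description. Cdkn1a was uneven: 146 of its 186 UMIs in the tested members came from the mt/hGRF library, and it was higher in 5 of 8 libraries. The G1 cyclins Ccnd1 (-0.13), Ccnd2 (-0.53) and Ccnd3 (-0.51) and Cdk4 (-0.43) did not pass. Meg3, a noncoding RNA of the pituitary that is known to be lost in some human pituitary tumours, fell by 1.03 on the log2 scale (SE 0.25, adjusted p = 0.0015), lower in 8 of 8 libraries, but not in barcodes of at least 1000 UMIs (-0.39, adjusted p = 0.561).

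**Figure D4:**
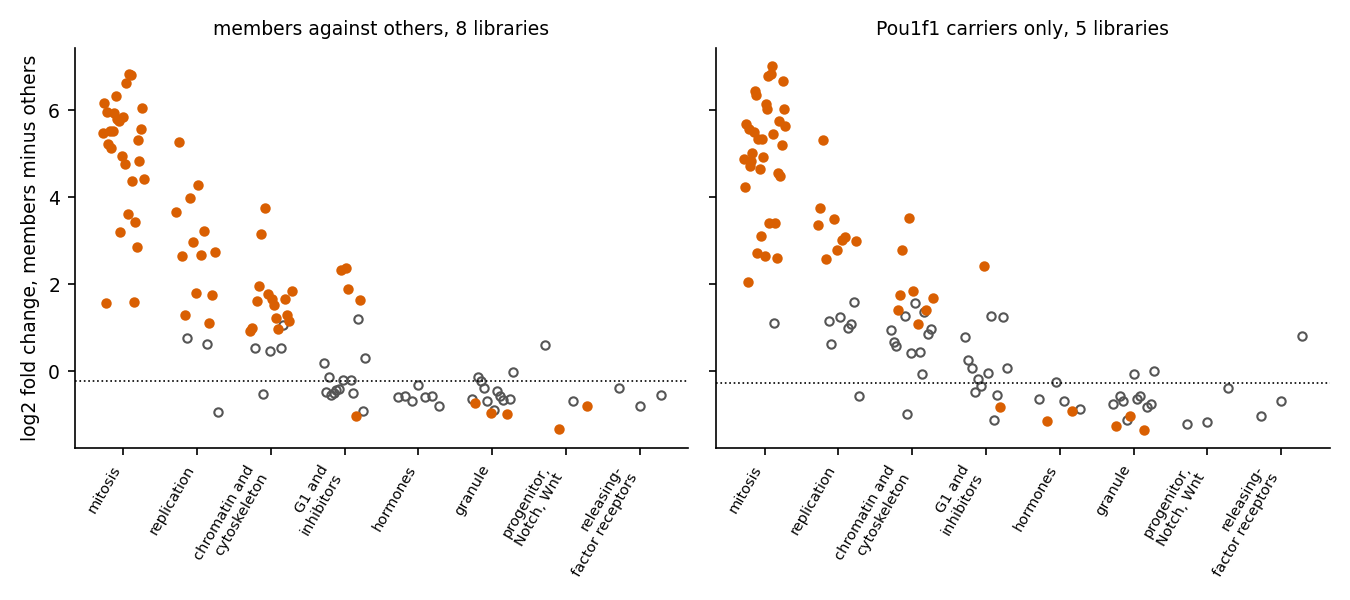
Log2 fold change of members against other barcodes for each tested gene of 8 lists, left over 8 libraries and right within barcodes with a UMI of Pou1f1 over 5 libraries; filled orange points have an adjusted p under 0.05 and the dotted line is the median of all genes. Mitosis genes sit highest, with medians of 5.48 and 5.20, and most hormone and granule genes lie below the dotted line.

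None of the 7 hormone genes was called in members as a whole, with a median of -0.59, and part of the secretory machinery fell. The calls changed with the setting: Gh was called lower in 8 of 19 alternatives and Prl and Pomc in 5 each, with members of at least 3 gate genes at -1.29, -1.63 and -2.17 (adjusted p = 0.000495, 4.9e-06 and 2.1e-10). Gh had 339, 767 and 1975 UMIs per 10000 in members of the lowest, median and highest library and 474, 1003 and 2142 in other barcodes, overlapping ranges, with a log2 fold change of -0.68 ± 0.23 (adjusted p = 0.0530). Prl was at -0.55 (adjusted p = 0.169) and Pomc at -0.60 (adjusted p = 0.622). A single member of the 10X female library held 56.5% of the members' Pomc UMIs, and without that library Pomc was at -0.99 (adjusted p = 0.00725).

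Of 14 tested granule genes 3 fell, with a median of -0.63. Snap25, of the vesicle fusion machinery, fell by 0.98 on the log2 scale (SE 0.26, adjusted p = 0.00633), lower in 8 of 8 libraries but not called in barcodes of at least 1000 UMIs (-0.69, adjusted p = 0.247) or with DESeq2 (-0.85), and the prohormone convertase Pcsk2 by 0.96 (SE 0.26, adjusted p = 0.00823). Chromogranin B, Chgb, fell by 0.73 (SE 0.24, adjusted p = 0.0420), lower in 6 of 8 libraries, and its call was lost when any of 5 single libraries was left out, 10X female, mt/hGRF, virgin, lactating 1 or WT-8wk-0511-female (adjusted p between 0.0685 and 0.146). Of 4 tested progenitor, Notch and Wnt genes, Igfbp5 fell by 1.31 (SE 0.28) and Nnat by 0.79 (SE 0.24, adjusted p = 0.0243, lost without lactating 1 and without WT-8wk-0511-female). The releasing factor receptors Ghrhr, Gnrhr and Esr1 did not pass, nor did Pou1f1 (0.07 ± 0.23, adjusted p = 0.915), Sox2 (0.13 ± 0.48, adjusted p = 0.921) or C1qa (-0.84 ± 0.88, adjusted p = 0.699).

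The 10 genes with the largest fall were mostly rare ones. They were led by the stromal genes Dcn (-3.30, 4 UMIs in 3 members) and Apod (-3.13, 6 UMIs) and the embryonic globins Hbb-bh1 (-2.95, 10 UMIs) and Hbb-y (-2.88, 6 UMIs). Hbb-bh1 was called in 17 of 18 alternative fits (adjusted p up to 0.296) and Hbb-y in 13 of 14 (up to 0.417). Habp4, Ypel2, Ccdc17, Alkbh2 and Pde4a followed, at -2.39 to -2.04. The call of Ypel2 was lost without any 1 of 10X female, mt/hGRF, virgin, lactating 1 and lactating 2 (adjusted p from 0.0516 to 0.0942). Those of Ccdc17 and Alkbh2 were lost without mt/hGRF (adjusted p = 0.0586 and 0.111) or lactating 2 (0.0739 and 0.120), and that of Pde4a without virgin (0.0647) or lactating 2 (0.177). H2-Aa, an antigen presentation gene, was at -2.46 although members held 147 of its UMIs, 41 of them in 1 member, and the call was lost without WT-8wk-0511-male (adjusted p = 0.208). Markers of other cells moved with this comparison: 1 of 2 tested stroma markers, 1 of 4 tested red blood cell markers and 1 of 3 tested corticotrope and melanotrope markers were lower in members, and none of 6 macrophage markers was called (median -0.70). Their part in the other differences was not tested.

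The comparison was repeated within barcodes that carried Pou1f1, over the 5 libraries with at least 10 such members and 5543 genes. These barcodes are not of 1 cell type: over all libraries, 176 of the others with Pou1f1 met the red blood cell markers and 39 the macrophage markers. Here 123 genes (2.22%) were higher in members and 43 (0.776%) lower, with a median log2 fold change of all genes of -0.27. Mitosis genes rose in 34 of 35 tested (median 5.20). As in the first fit, several passed the filter on low counts only through the members and had to differ. The count therefore supports nothing beyond the choice of members. The 5 largest rises over all genes were those of Psrc1 (7.01) and Nuf2 (6.82) of the list and, outside it, the midbody gene Cep55 (7.29), Spag5 (7.12) and Ankle1 (6.98). The exception in the list was Racgap1, which serves cytokinesis (1.11, adjusted p = 0.163). Replication genes rose in 9 of 16 (median 2.69) and chromatin and cytoskeleton genes in 8 of 20 (median 1.18), and these counts too describe the chosen barcodes.

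Within Pou1f1 barcodes Gh was called lower in members, though not in every library or setting. Its level in members against other Pou1f1 barcodes was 663 against 945 UMIs per 10000 in the 10X female library, 487 against 1493 in mt/hGRF, 726 against 1171 in virgin, 332 against 604 in lactating 1 and 1119 against 1050 in lactating 2. It was lower in 4 of the 5 libraries and slightly higher in lactating 2. The log2 fold change was -1.13 ± 0.24 (SE, adjusted p = 0.00015), and it was -1.16 (adjusted p = 0.134) in barcodes of at least 1000 UMIs. Gh was called in 13 of 15 alternative fits, with log2 fold changes of -1.56 to -0.99 and adjusted p up to 0.784. Free Gh RNA, present in nearly every droplet, adds the same kind of signal to both sides, and its part in the fold change was not tested.

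Prl was split between libraries. It was at 159 against 718 UMIs per 10000 in 10X female, 604 against 1207 in virgin and 860 against 1132 in lactating 1, and higher in members in mt/hGRF, at 675 against 451, and in lactating 2, at 1788 against 1357. Its log2 fold change of -0.92 ± 0.25 passed (adjusted p = 0.0108) but was not called in 11 of 15 alternatives, including those without 10X female (-0.48, adjusted p = 0.637), without virgin (-0.71, adjusted p = 0.852) and without lactating 1 (-0.94, adjusted p = 0.149). Pomc was at -0.69 (adjusted p = 0.0804), and of 6 tested hormone genes 2 fell, with a median of -0.77.

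The granule genes that fell in Pou1f1 barcodes were Scg5 (-1.35 ± 0.27), the chaperone of Pcsk2, Chgb (-1.25 ± 0.23) and Pcsk1n (-1.03 ± 0.30), 3 of 13 tested, with a median of -0.74. Chgb was at 3.61 against 17.9 UMIs per 10000 in 10X female, 27.9 against 43.1 in mt/hGRF, 40.2 against 76.4 in virgin, 52.7 against 92.7 in lactating 1 and 132 against 128 in lactating 2. Scg5 was likewise lower in 4 libraries and higher in lactating 2, at 9.85 against 6.84. Lactating 2, the library with the most members, thus stood apart from the rest for Gh, Chgb and Scg5. The call of Scg5 was lost with DESeq2 (adjusted p = 0.0802), without the deepest 5% of barcodes (0.0533), with no pseudogene limit (0.171) and after thinning to 300 UMIs (0.133), and that of Chgb with DESeq2 (0.0556) and with no pseudogene limit (0.496). The call of Pcsk1n was lost without any 1 of 4 libraries, 10X female, mt/hGRF, virgin or lactating 1 (adjusted p from 0.0947 to 0.226).

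Cdkn1a rose in Pou1f1 members too (2.42 ± 0.44, higher in 5 of 5 libraries), but without mt/hGRF it was at 1.54 (adjusted p = 0.212). Meg3 fell by 0.82 (SE 0.24, adjusted p = 0.0222), lost without lactating 1 (adjusted p = 0.225) and without lactating 2 (adjusted p = 0.144). None of 3 receptor genes and none of 3 progenitor, Notch and Wnt genes was called.

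Among the 5 genes with the largest fall in Pou1f1 members, 3 were globin genes. Hbb-bs was at 1.94 against 19.6 UMIs per 10000 in 10X female, 4.69 against 49.0 in mt/hGRF, 1.57 against 28.8 in virgin, 9.63 against 20.6 in lactating 1 and 2.55 against 38.9 in lactating 2. The groups did not overlap in any pair, and the log2 fold change was -3.49 ± 0.26, beside -4.60 for Hbb-bt and -3.96 for Hba-a1, all 3 of the red blood cell markers tested. These are falls in level. Over all members and other barcodes, not matched for depth, a UMI of Hbb-bs was held by 36.8% against 31.1% and one of Hba-a1 by 16.1% against 15.9%. The others of the 5 were Nt5c2 (-2.83, adjusted p = 0.0445, lost without any 1 of mt/hGRF, lactating 1 and lactating 2) and the zinc finger gene Zfp276, which had 0 UMIs in these members and was at least 2.63-fold lower at a limit of 3 UMIs over the group, a call lost without mt/hGRF (adjusted p = 0.0644).

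**Figure D5:**
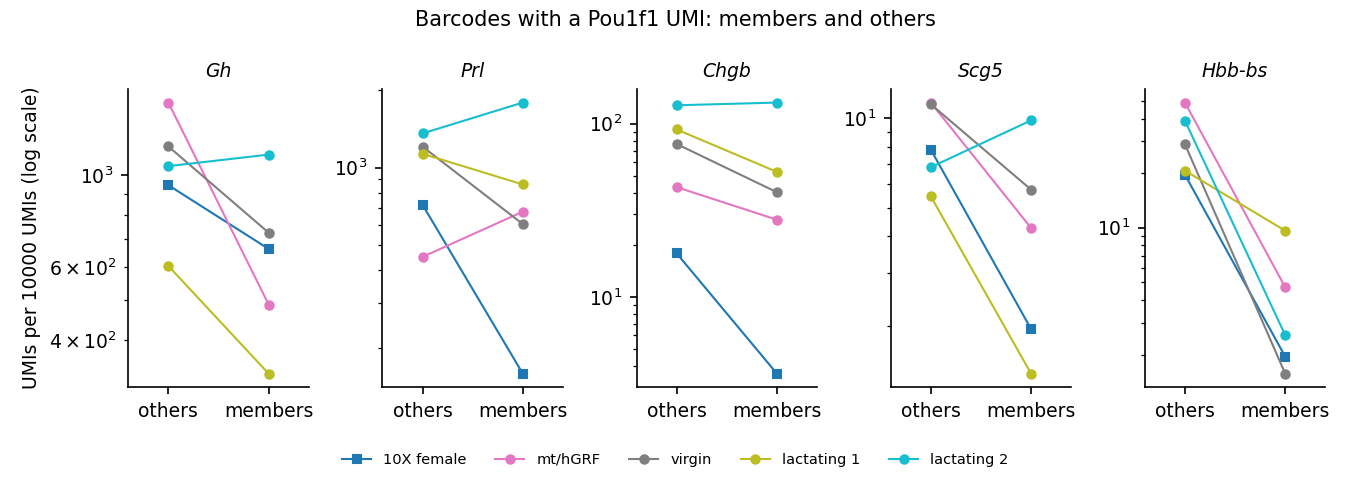
Levels of Gh, Prl, Chgb, Scg5 and Hbb-bs (UMIs per 10000 UMIs, log axis) in other barcodes and members that carried a UMI of Pou1f1; each line is 1 of 5 libraries. Gh, Chgb and Scg5 fall in 4 libraries and rise in lactating 2, Prl rises in mt/hGRF and lactating 2, and Hbb-bs falls in all 5.

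Members themselves differed little that could be shown between conditions. Between males and females 64 genes had enough UMIs to test, and edgeR's quasi-likelihood test called 0 (0%) in each direction, with 3 at an unadjusted p under 0.05 and 0 by DESeq2. Gh, at a log2 fold change of 0.76 ± 0.91, and Pou1f1, at 0.40 ± 0.49, show how wide the errors were with 3 to 16 members a library. Between mt/hGRF and the WT Drop-seq females 878 genes were tested and 0 (0%) were called in each direction, with 29 at an unadjusted p under 0.05 and 0 by DESeq2. With 1 library on one side, a count of 0 does not show that no gene differed.

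One gene of that comparison is given although it was chosen after its values were seen. Cdkn1a had 146 UMIs in 26 of the 86 mt/hGRF members, at most 24 in 1 of them, or 14.1 UMIs per 10000, against 0.401 in the other barcodes of that library. It had 0 UMIs in the members of the WT Drop-seq females, so that it was at least 17.3-fold higher at a limit of 3 UMIs over that group (adjusted p = 0.131 in edgeR's quasi-likelihood test). It was called in 3 of 6 alternatives: with no filter on low counts (adjusted p = 0.00635), with the 2 groups only (0.00853) and with at least 3 gate genes (0.0238). With 1 mt/hGRF library these fits take the spread from the other groups, from the 2 WT libraries alone in the second, and the gene was picked by its values, so they support no difference between genotypes. In the members of the other libraries it lay between 0 and 1.66 UMIs per 10000. Its product p21 is known as an inhibitor of the cycle.

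Between lactating and virgin mice 878 genes were tested, 0 (0%) were higher and 3 (0.342%) lower, with 10 at an unadjusted p under 0.05 and 2 called by DESeq2. H2-Aa and Cd74, which act together in antigen presentation, were at 25.3 and 35.1 UMIs per 10000 in virgin members, 0.277 and 0.553 in lactating 1 and 0.148 and 0.296 in lactating 2 (log2 fold changes -6.74 ± 1.01 and -6.25 ± 1.05, both with adjusted p = 0.0053 in edgeR's quasi-likelihood test). With 1 virgin library, the fit takes the spread from the other Drop-seq groups and assumes that the virgin library varies like them. Their 135 and 187 UMIs in virgin members lay in 8 members each. In the same library 6 of 45 members met the macrophage markers, and the part of such cells in the difference was not tested. The call was lost for both genes without lactating 2 (-6.30 and -5.84, adjusted p = 0.653), for Cd74 without lactating 1 (-6.58, adjusted p = 0.0886) and for H2-Aa with DESeq2 (-6.86, adjusted p = 0.0658).

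The remaining call had the same pattern in the other barcodes. Cwc22, a splicing factor, had 58 UMIs in 22 of 45 virgin members, or 10.9 UMIs per 10000, and 0 in lactating members, at least 86.6-fold lower at a limit of 3 UMIs over the group (adjusted p = 0.0053 in edgeR's quasi-likelihood test, lost without lactating 2 at 0.653). The other barcodes of the virgin library were at 10.4 UMIs per 10000 and those of the lactating libraries at 0.257 and 0.120. The members thus carried the level of their own library. With 1 virgin mouse, lactation and animal cannot be told apart.

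A few members were of another kind. Genes of granulocyte precursors (Camp, Ngp, S100a8, S100a9, Ltf, Chil3 and Lcn2, a list chosen after values were seen) were concentrated in 1 member each of mt/hGRF, lactating 2 and WT-8wk-0511-female, which held 1540 of 1544, 415 of 421 and 53 of 53 of the list's UMIs in members of those libraries. None of the 3 carried Pou1f1. At the molecular level 1 pair of members, in WT-8wk-0324-female, had barcodes within 1 base of each other, and 6 members had barcodes that ended in an undetermined base.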

How the data were processed

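Mouse pituitary cells had been profiled by Drop-seq (8 libraries) and 10X Genomics (2 libraries). The deposited tables hold raw counts of UMIs per gene symbol and barcode; the authors had made them by alignment to mm10, with STAR 2.5.2a and Cell Ranger named in the submitters' processing notes (the Cell Ranger version is not given in the sources used here), and for Drop-seq had merged UMIs within 1 edit. No column was left unmatched to a sample (0 unmatched).

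Barcodes were kept with at least 300 UMIs and 100 to 4000 genes (Drop-seq) or 201 to 2999 genes (10X), a mitochondrial share under 0.1 and a ribosomal protein pseudogene share under 0.01. The 24768 symbols on both platforms were used in the fits, with exceptions. The transgene and lactation fits, and the refits of members against other barcodes with Drop-seq only, used the Drop-seq symbols. The members and lists were chosen with earlier results of these data known. Sums per library entered the quasi-likelihood test of edgeR 4.0.16 in R 4.3.3 (limma 3.58.1), after a filter on low counts and TMM scaling, with Benjamini-Hochberg adjusted p-values; members and other barcodes of a library were kept as a block, male and female were fitted with platform as a term, and the transgene and lactation comparisons shared 1 fit of all Drop-seq libraries. The gate genes were left out of every test, and Pou1f1 of the test within its carriers. DESeq2 1.42.0 was an alternative. Tests of shares were exact permutation tests (scipy 1.17.1, numpy 2.4.6, pandas 2.3.3, Python 3.11.15). Scripts were tested on simulated data. Levels are UMIs per 10000 UMIs of the summed barcodes; UMIs tag 3′ ends, and the most abundant member of a list is that with the most UMIs. A marker class needed at least 2 markers, or 3 where its list has more than 4.

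Named genes were the gate and lineage genes, in each list the members with the largest and smallest change past the threshold and the most abundant member, and the 10 (members against others) or 5 (other comparisons) with the largest change in each direction; other list genes serve as examples, and some genes that the rule names are not reported here. Male and female libraries share labels, and same-label libraries deviated together over the 64 tested genes (correlations 0.749, 0.231 and 0.539). Pairs with unlike labels ran from -0.620 to 0.270. The highest of these, WT-8wk-0324-female with WT-8wk-0511-male, exceeded the same-label WT-8wk-0324 pair. Platform was not removed from the deviations, so the pairing by label is not clear. The labels were taken as pairs and the replicate block was run. Thinned sums, the removal of granulocyte-gene barcodes and the sign-flip test by label and granule sums without lactating 2 were added after the data had been seen.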

Additional observations from a re-analysis of the deposited data

Results flagged for a closer look

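The difference in the share of members between males and females took opposite signs under different labels, -0.801 points on 10X and 0.327 points in the WT-8wk-0324 pair, with 3 to 16 members a library; the difference between labels was not tested.

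Outside the kept barcodes, 1107 barcodes passed the other limits but exceeded the limit on ribosomal protein pseudogenes, and 273 of them (24.7%) held UMIs of at least 2 gate genes, of which 13 (4.76%) carried Pou1f1. They were spread unevenly, with 94 in 10X male, 64 in WT-8wk-0511-female, 50 in 10X female, 46 in WT-8wk-0511-male, 14 in WT-8wk-0324-male and at most 2 in each of the other libraries.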

How the results depend on the processing

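Members numbered 3 to 125 a library and were mostly shallow, so rare lineage genes and differences between conditions had little depth behind them. The share in mt/hGRF exceeded that in WT Drop-seq females by 2.14 points, and by 1.47 with at least 3 gate genes, 2.71 with at least 1, 1.401 and 2.41 after thinning to 300 and 500 UMIs, but 0.0872 with no limit on pseudogenes. Male minus female turned from -0.189 to 0.349 with no pseudogene limit, 0.116 with Drop-seq only and 0.109 without 10X male (-0.519 to 0.109 leaving out 1 library). The replicate block gave 0 genes in each direction, and p = 0.75 in the exact sign-flip permutation test of the share; it changed no call.

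The difference of Nr5a1 (-0.315 points) was no longer called after thinning to 500 UMIs (-0.440), without thinning (-0.725), with at least 3 gate genes (-0.234), with 2 UMIs of the gene required (-0.0284), with Drop-seq only (-0.324) and in 7 of 8 sets that left out 1 library (-0.343 to -0.254); with 6 or 7 libraries it had the smallest p possible, which alone cannot pass the adjustment. Pou1f1 was called without thinning (16.2). Tbx19 became 0.864 without thinning and was called without mt/hGRF (-0.629; -0.629 to -0.364 leaving out 1 library). That call is not read as a lower share, since members of all 7 libraries left were at 0, which is below any level above 0. C1qa turned to -0.429 with 2 UMIs required, -0.333 without virgin, -0.256 without lactating 1 and -0.0144 without WT-8wk-0324-male (up to 1.11 without 10X female).

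Genes higher and lower in members (181 and 137) became 397 and 1169 with no filter on low counts, 838 and 1814 with no pseudogene limit and 25 and 52 after thinning. The lower genes became 45 with DESeq2, 341 with at least 3 gate genes, 56 in barcodes of at least 1000 UMIs, 285 without the deepest 5% and 85 without mt/hGRF; leaving out 1 library gave 127 to 240 higher and 85 to 196 lower. Pou1f1 turned to -0.37 with no filter, -0.22 with at least 3 gate genes, -1.22 with no pseudogene limit (called lower, adjusted p = 0.0398), -0.33 after thinning and -0.00363 without WT-8wk-0324-male (up to 0.11 without virgin), and Sox2 to -0.31 with no filter, -0.29 at 1000 UMIs and -0.0393 without WT-8wk-0324-male (up to 0.28 without lactating 2). Over all named genes, direction and side of the threshold were kept in 610 of 696 refits.

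Within Pou1f1 barcodes (123 and 43) the counts became 220 and 186 with no filter, 71 and 12 at 1000 UMIs, 55 and 4 with no pseudogene limit and 23 and 16 after thinning. Lower genes became 7 with DESeq2, 26 with median-ratio factors, 23 without mt/hGRF and 21 without lactating 1; leaving out 1 library gave 113 to 130 higher and 21 to 64 lower. Nnat turned to 0.046 without lactating 1 (as low as -0.64 without virgin).

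Between the sexes 1 gene was lower with no filter, and 1 was higher and 1 lower without WT-8wk-0511-male. Between lactating and virgin, fitting the 2 groups alone gave 3 higher and 19 lower, and 0 were lower after thinning and without lactating 2. For mt/hGRF, 4 were higher with no filter, 4 higher and 1 lower with the 2 groups alone, and 1 higher with at least 3 gate genes. The causes were not tested.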
